A study of Mus musculus with 12 samples.

Results

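The comparison described here asks whether polysome-bound transcripts changed differently between prophase arrest and metaphase I in mouse oocytes with and without Cnot6l. For each gene, the change from the germinal vesicle stage (GV, arrested in prophase I) to metaphase I (MI) in Cnot6l-/- oocytes was set against the same change in wild-type (WT) oocytes. The difference of these changes, knockout change minus WT change on the log2(FPKM + 1) scale, is the genotype by stage interaction, and a positive value means that the change was higher in the knockout. FPKM counts sequenced fragments relative to transcript length and library size, so it is a level per transcript length. The interaction rests on 8 of the 12 libraries of the study, 2 for each of the 4 groups WT GV, WT MI, Cnot6l-/- GV and Cnot6l-/- MI. All groups were oocytes of C57BL/6 background taken on postnatal day 21. GV oocytes came 48 h after PMSG, a gonadotropin that stimulates follicle growth, MI oocytes came after 8 h of culture, and the 4 metaphase II (MII) libraries came after 16 h. The genotype label gives neither the deleted part of Cnot6l nor a Cre line, and the labels do not say whether the 2 libraries of a group came from separate animals or pools of oocytes, so p-values measure only the spread between these libraries. Of 23235 genes in the deposited table, 11667 averaged 1 FPKM or more across all 12 libraries and were tested. The gene just inside that limit was Dock10 at 1 and the gene just outside it was Lair1 at 0.999.

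A fully grown oocyte makes almost no new RNA, so its proteins are made from transcripts stored during growth. When meiosis resumes, some stored transcripts are lengthened at their poly(A) tails and loaded on ribosomes, while others are deadenylated and destroyed. CNOT6L is a catalytic deadenylase of the CCR4-NOT complex, which shortens poly(A) tails, and BTG4 is an adaptor that brings the complex to maternal transcripts. RNA bound to polysomes was sequenced here, so a value reflects both how much of a transcript was present and how much of it was on ribosomes. In such bulk samples, fewer cells of a type and less RNA per cell cannot be told apart.

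The deposited FPKM of the 8 libraries did not sum to a common total: totals ran from 1040466 in a WT MI library to 1663871 in a knockout MI library. Genes above 0 numbered 10487 to 10578 in WT MI and 13277 to 13319 in knockout MI, against 12205 to 12616 in the GV libraries of both genotypes. Each result is therefore given on 2 scales, FPKM as deposited and FPKM after median scaling, in which each library was divided by its median ratio to the geometric mean library over 5734 genes. Depth in reads is unknown. Across genes, Pearson's r between the 2 libraries of a group was 0.886 to 0.949 in these 4 groups. All 12 oocyte markers were above 0 in every library. Granulosa cell markers summed to 338 and 364 FPKM at GV and 141 and 157 at MI in WT, and 181 and 279 at GV and 209 and 172 at MI in the knockout, with 12 to 16 of 20 above 0 and with Foxl2 and Lhcgr at 0 in all libraries. The sums mix markers that changed differently from GV to MI. Inha went from 200.94 and 238.8 to 22.74 and 37.61 in WT, and from 112.61 and 152.36 to 23.41 and 25.03 in the knockout. Cyp19a1 went from 23.46 and 36.47 to 36.53 and 32.83 in WT, and from 8.87 and 16.97 to 100.81 and 92.02 in the knockout. Ptx3 was at 0 in all GV libraries and had 32.07 and 40.24 at MI in WT, against 11.15 and 3.71 in the knockout. The part of these markers in the results was not tested. The targeted gene itself was not lost from the tables: Cnot6l had FPKM of 38.7 and 16.1 at GV and 68.5 and 47.9 at MI in WT, and 6.28 and 21.6 at GV and 23.5 and 16.5 at MI in the knockout. The genotypes overlapped at GV and were separate at MI, where all knockout values were lower. Its interaction was -0.47 as deposited (limma adjusted p = 0.704) and -1.50 after median scaling (limma adjusted p = 0.521).

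Polysome-bound transcripts fell between GV and MI in WT oocytes in larger number than in Cnot6l-/- oocytes as deposited. In WT, 2535 genes (21.7% of those tested) fell and 357 (3.06%) rose. In the knockout, 157 (1.35%) fell and 1037 (8.89%) rose. The median change over all genes was -0.87 in WT and 0.26 in the knockout. The interaction was accordingly positive for 86.1% of genes, with a median of 1.13, and 1680 genes (14.4%) were called higher against 31 (0.266%) called lower at a limma adjusted p below 0.05.

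Median scaling removed most of that common shift, moving the median interaction by about 0.91 to 0.22. On this scale 815 genes (6.99%) rose and 889 (7.62%) fell in WT, and 489 (4.19%) rose and 271 (2.32%) fell in the knockout. The interaction was then called higher for 75 genes (0.643%) and lower for 108 (0.926%). All 75 genes called higher after scaling were also called higher as deposited, and 26 genes (0.223%) were called lower on both scales. Scaling took a similar amount from the interaction of most abundant genes. In the higher direction a call on both scales therefore adds little to the scaled call alone. Another 14 genes changed sides, being called higher as deposited and lower after scaling, among them Gdf9, Dppa3, Pttg1, Birc5, Npm1 and Spin1. The remaining 1591 genes called higher as deposited did not pass after scaling, and the files do not say how the total of each library was set. The plot of stage changes shows the common shift and the genes that stand outside it.

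**Figure D1:**
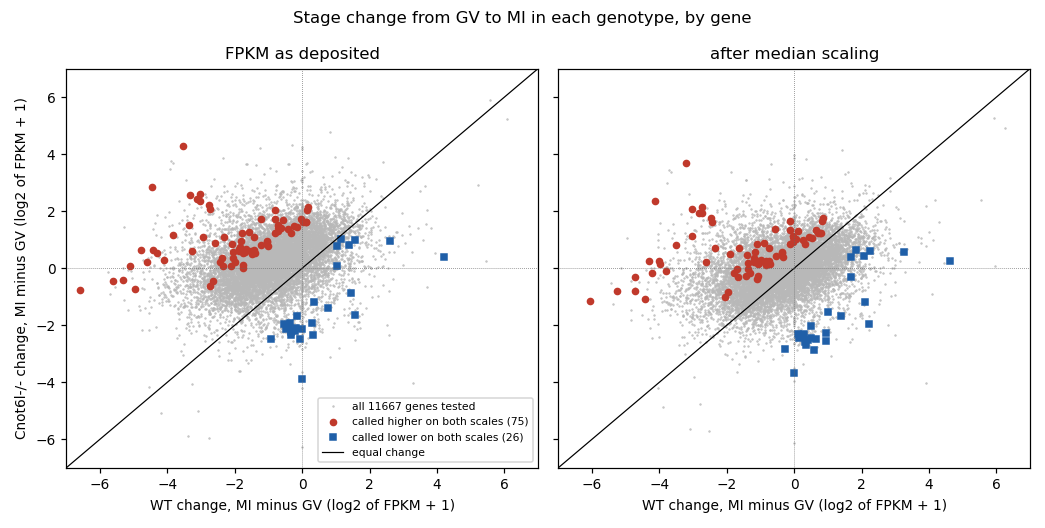
Change from GV to MI in Cnot6l-/- oocytes (vertical axis) against the change in WT oocytes (horizontal axis), both in log2 of FPKM + 1, for 11667 genes, as deposited (left) and after median scaling (right). The cloud lies above the line of equal change as deposited (median interaction 1.13) and close to it after scaling (0.22); red circles are the 75 genes called higher and blue squares the 26 called lower on both scales.

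The 75 genes called higher on both scales were abundant, with a median mean FPKM of 540 against 15.0 for all genes tested. After median scaling, 46 of them had a negative change in WT and a positive one in the knockout, 17 had negative changes in both genotypes and 12 positive changes in both. Their median change was -1.15 in WT and 0.48 in the knockout on that scale, and 55 were called lower at MI than at GV in WT. The gap came from both stages. At GV the knockout was called lower than WT for 35 of the 75 as deposited, where 1.4% of all genes were, and for 31 after scaling, where 0.96% were, and at MI it was called higher for 43, where 2.16% were. These counts describe the terms of the interaction and share its libraries. The number of genes called higher on both scales was 42 and 31 without WT GV replicate 1 or 2, 32 and 29 without Cnot6l-/- MI replicate 1 or 2, and 172 and 167 without WT MII replicate 1 or 2, which the contrast itself does not use. With no abundance trend in that estimate it was 30, of which 17 are among the 75.

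The genes named first are the 12 with the largest interaction after scaling among 54 of the 75 whose stage changes did not overlap between genotypes in any pairing of libraries, with predicted genes left out. Such separation was found for 50.9% of all genes as deposited and 19.8% after scaling in the higher direction, and for 2.5% and 12.3% in the lower. At the top were transcripts that nearly vanished from WT polysomes at MI and stayed in the knockout. Lypd3, a member of the Ly6 family of membrane-anchored proteins (chr7:25421589-25426137, mouse build 9), had FPKM of 159 and 147 at GV and 2.06 and 3.81 at MI in WT, against 198 and 225 at GV and 166 and 153 at MI in the knockout. The knockout MI libraries lay slightly below those of knockout GV and far above those of WT MI, with no overlap. The Lypd3 interaction was 4.92 ± 0.47 (SE) as deposited (limma adjusted p = 0.000129) and 3.95 ± 0.48 after scaling (limma adjusted p = 0.00201). The call held in each of the 22 alternatives tried on the deposited values and the 18 tried on the scaled ones. Slc35b2, a Golgi transporter of the sulfate donor PAPS, had FPKM of 35.1 and 45.1 at GV and 0.39 and 0 at MI in WT, and 40.1 and 74.0 at GV and 69.1 and 47.1 at MI in the knockout. WT MI stood far below the other 3 groups, and knockout GV overlapped both WT GV and knockout MI. Its interaction was 5.18 ± 0.66 as deposited (limma adjusted p = 0.000887) and 4.42 ± 0.69 after scaling (limma adjusted p = 0.0109). The scaled call was lost without WT GV replicate 2, Cnot6l-/- GV replicate 1 or either Cnot6l-/- MI library, with adjusted p up to 0.0952. Mgmt, which repairs alkylated guanine in DNA, went from 71.8 and 79.1 to 1.36 and 1.51 in WT and from 71.5 and 112 to 39.7 and 72.8 in the knockout, an interaction of 4.25 as deposited and 3.34 after scaling. Dgkh, a diacylglycerol kinase of low abundance, fell in WT from 8.15 and 13.0 to 0 and 0.19, while in the knockout it had 2.60 and 7.57 at GV and 17.7 and 12.4 at MI, a change that was not called. The scaled calls of Mgmt and Dgkh were lost in 6 and 14 of 18 alternatives, with adjusted p up to 0.122 and 0.234, and in both cases without either WT GV library, WT MI replicate 1, Cnot6l-/- GV replicate 1 or Cnot6l-/- MI replicate 2.

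Cdkn1b, which encodes the cyclin-dependent kinase inhibitor p27 (chr6:134870419-134875543), had FPKM of 34.8 and 35.9 at GV and 3.56 and 3.85 at MI in WT, and 37.0 and 42.1 at GV and 81.5 and 87.6 at MI in the knockout. The genotypes were alike at GV and far apart at MI, where WT was the lowest group and the knockout the highest. The interaction of Cdkn1b was 4.03 ± 0.53 as deposited (limma adjusted p = 0.00105) and 3.04 ± 0.54 after scaling (limma adjusted p = 0.0209). At MII, in libraries outside the interaction, Cdkn1b was listed at 0 in both WT libraries and had 33.9 and 45.5 in the knockout. It fell in WT on both scales, and its change in the knockout was not called. The scaled interaction was no longer called when any one of the WT GV, Cnot6l-/- GV or Cnot6l-/- MI libraries was left out, with adjusted p up to 0.138.

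Another pattern as deposited was a start below WT at GV and a finish above it at MI. Sdhb, Cox4i1, Rpl5 and Psmb5 are examples, each called lower in the knockout at GV and higher at MI. After scaling the GV call of Psmb5 and the MI call of Rpl5 were not made. In the lists these genes come from, the knockout was called lower at GV as deposited for 6 of 80 ribosomal, 6 of 77 respiratory chain and 5 of 33 proteasome genes, where 1.4% of all genes were. At MI it was called higher for 63, 53 and 28 as deposited, where 27.9% of all genes were. After scaling the knockout was called lower at GV for 5, 5 and 1, where 0.96% of all genes were. At MI after scaling it was called higher for 12, 5 and 2, where 2.16% were, and lower for 5, 8 and 1, where 2.46% were. Sdhb, the iron-sulfur subunit of succinate dehydrogenase, had FPKM of 457 and 480 at GV and 78.2 and 75.6 at MI in WT, and 163 and 227 at GV and 364 and 341 at MI in the knockout. No 2 groups overlapped, and the order of the genotypes at GV was the opposite of that at MI. Its interaction was 3.46 ± 0.32 as deposited (limma adjusted p = 0.000112) and 2.40 ± 0.31 after scaling (limma adjusted p = 0.00314). Cox4i1, a nuclear-encoded subunit of cytochrome c oxidase, had 2253 and 2408 at GV and 834 and 724 at MI in WT, and 1178 and 1051 at GV and 2691 and 2627 at MI in the knockout. Cox4i1 fell in WT and rose in the knockout on both scales. Its interaction was 2.84 ± 0.16 as deposited (limma adjusted p = 3.73e-06) and 1.78 ± 0.16 after scaling (limma adjusted p = 0.00033).

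Rpl5, a protein of the large ribosomal subunit that binds 5S rRNA, had FPKM of 1925 and 2102 at GV and 825 and 886 at MI in WT, and 729 and 725 at GV and 2385 and 2480 at MI in the knockout. As deposited, the knockout began below every WT library and ended above every WT library. Its interaction was 2.97 ± 0.25 as deposited (limma adjusted p = 7.55e-05) and 1.91 ± 0.24 after scaling (limma adjusted p = 0.0026). Psmb5, a catalytic subunit of the proteasome core, had 1029 and 958 at GV and 268 and 208 at MI in WT, and 575 and 593 at GV and 1064 and 1015 at MI in the knockout. WT MI was lowest, knockout GV was intermediate, and WT GV overlapped knockout MI. Its interaction was 2.90 ± 0.21 as deposited (limma adjusted p = 2.69e-05) and 1.84 ± 0.21 after scaling (limma adjusted p = 0.0014). Calls for Sdhb, Cox4i1, Rpl5 and Psmb5 held in all alternatives tried except the scaled fit with no abundance trend, where adjusted p was 0.0557 for Sdhb, 0.0849 for Cox4i1, 0.111 for Rpl5 and 0.0862 for Psmb5.

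Arf5, a small GTPase of membrane traffic, shared this pattern through MI, with FPKM of 540 and 511 at GV and 168 and 137 at MI in WT, and 165 and 153 at GV and 429 and 323 at MI in the knockout. Its fall in WT and rise in the knockout gave an interaction of 3.01 as deposited and 1.95 after scaling, and both stage changes were called on both scales. At MII the order turned again, with 462 and 543 in WT and 195 and 133 in the knockout (log2 difference -2.24 after scaling, limma adjusted p = 6.34e-05). Tbcb, a tubulin folding cofactor, went from 561 and 689 to 121 and 125 in WT and from 307 and 201 to 546 and 511 in the knockout, an interaction of 3.41 as deposited and 2.35 after scaling. Ppap2a, a lipid phosphate phosphatase, completed the 12 largest interactions at 2.84 as deposited and 1.79 after scaling. The scaled calls of Arf5, Tbcb and Ppap2a were lost in 5, 11 and 11 of 18 alternatives, with adjusted p up to 0.127, 0.158 and 0.209, in each case without either WT GV library or Cnot6l-/- MI replicate 1.

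**Figure D2:**
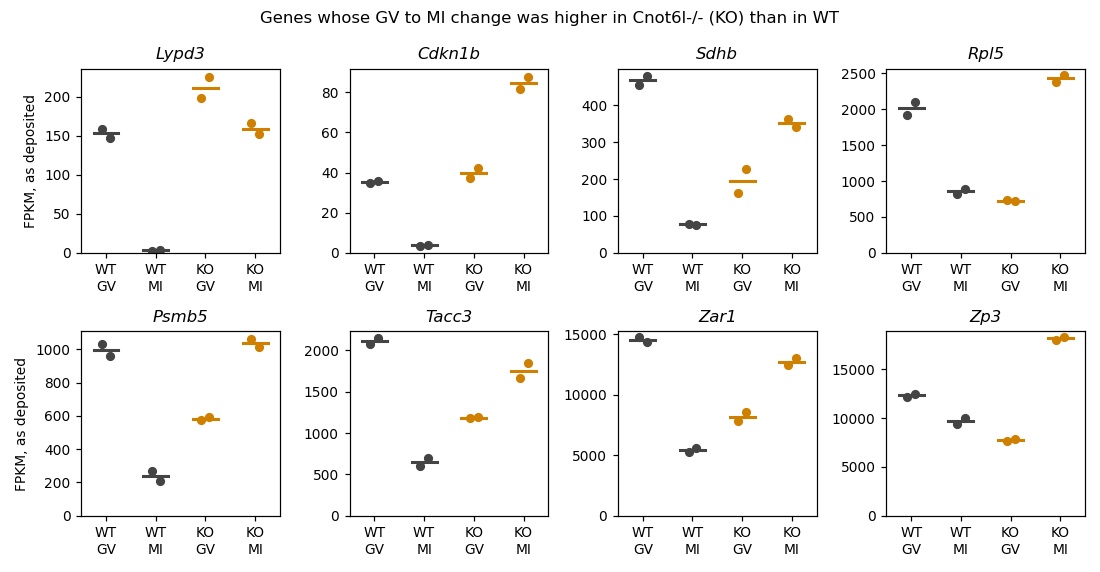
FPKM as deposited (vertical axes, each from 0) in the 2 libraries of each group, with a bar at the mean, for 8 genes whose change from GV to MI was higher in Cnot6l-/- (KO, orange) than in WT (grey). In Sdhb, Rpl5, Psmb5, Tacc3, Zar1 and Zp3 the knockout lies below WT at GV and above it at MI; Lypd3 and Cdkn1b differ mainly through WT MI, at 2.06 to 3.85 FPKM.

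As groups, proteasome, respiratory chain, TCA cycle and cytosolic ribosomal protein genes had median interactions above the median of all genes on both scales. Chaperone genes, at 1.44 and 0.38, and several other lists also did. No list but that of oocyte-restricted genes had a call lower as deposited. Of all genes, 14.4% were called higher and 0.266% lower as deposited, and 0.643% and 0.926% after scaling. Among genes averaging 76.7 FPKM or more, 1067 of 2334 were called higher as deposited and 56 after scaling. Of 33 proteasome subunits tested, 26 were called higher as deposited (median 1.71 against 1.13 for all genes) and 3 after scaling (median 0.65 against 0.22), namely Psmb5, Psmb4 and Psmb2. Psmb4 had 423 and 391 at GV and 76.2 and 78.1 at MI in WT, and 316 and 310 at GV and 398 and 404 at MI in the knockout, an interaction of 2.74 as deposited and 1.68 after scaling. Psmb2 had an interaction of 2.02 as deposited and 0.96 after scaling. Of 77 nuclear-encoded respiratory chain genes, 47 were called higher as deposited (median 1.41) and 6 after scaling (median 0.35): Sdhb, Cox4i1, Cox5b, Ndufb11, Atp5f1 and Atp5h. Ndufa4 and Cox6c were called lower after scaling, at -0.91 and -1.08, while their values as deposited were 0.16 and -0.01. Of 36 genes of the TCA cycle and antioxidant defence, 15 were called higher as deposited (median 1.51) and 1 after scaling (median 0.54), the peroxidase Prdx2 at 1.77 and 0.71. The scaled calls of Psmb4, Psmb2, Atp5f1 and Prdx2 were lost in 5, 8, 8 and 9 of 18 alternatives, with adjusted p up to 0.124, 0.348, 0.176 and 0.494, in each case without either WT GV library or either Cnot6l-/- MI library.

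Cytosolic ribosomal protein genes fell in WT for 63 of 80 as deposited and 42 after scaling, and in the knockout for 10 and 25, where 21.7% and 7.62% of all genes fell in WT and 1.35% and 2.32% in the knockout. Their interaction was called higher for 43 of 80 as deposited (median 1.33) and for 8 after scaling (median 0.28). Of all genes, 14.4% and 0.643% were, and the same shares stand beside the other lists of this paragraph. Among the 8 were Rpl5, Rpl13, Rpl14, Rpl28, Rpl35, Rps19 and Fau. Rpl14 had FPKM of 1119 and 1114 at GV and 293 and 246 at MI in WT, and 955 and 961 at GV and 1362 and 1461 at MI in the knockout. Knockout GV was a little below WT GV and the MI groups were on opposite sides of both. The interaction of Rpl14 was 2.61 as deposited and 1.55 after scaling, and that of Rps19 was 2.59 and 1.53. With no abundance trend, the scaled calls of Rpl14 and Rps19 did not pass (limma adjusted p = 0.1445 and 0.124). Rpl41 and Rps28 were called lower after scaling at -0.82 and -1.35, with 0.24 and -0.29 as deposited. Ribosomal protein genes have many near-identical processed copies in the genome, and how the authors' counting split reads among them is not stated. Of 76 mitochondrial ribosomal proteins, 23 were called higher as deposited (median 1.28) and none after scaling (median 0.23). Translation factors had 19 of 48 called higher as deposited and Eif3k alone after scaling, at 2.00 and 0.94. Chaperones had 15 of 32 as deposited and Dnajb6, a J-domain cochaperone, after scaling, at 2.33 and 1.27. Aminoacyl-tRNA synthetases had 4 of 19 as deposited, Farsb, Iars, Rars and Wars, and none after scaling. The scaled calls of Eif3k and Dnajb6 were lost in 11 and 7 of 18 alternatives, with adjusted p up to 0.357 and 0.231, in both cases without either WT GV library, WT MI replicate 2 or either Cnot6l-/- MI library.

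Transcripts of the egg coat and of the subcortical maternal complex, which the early embryo needs, were among the most abundant genes of the comparison. All 3 zona pellucida genes and 7 others of the 11 genes in this list were called higher as deposited (median 1.32), and 3 were called higher after scaling (median 0.26). Of all genes, 14.4% and 0.643% were. Zp3, a component of the zona pellucida (chr5:136455975-136464494), had FPKM of 12192 and 12487 at GV and 9431 and 9977 at MI in WT, and 7669 and 7893 at GV and 17976 and 18339 at MI in the knockout. As deposited, knockout GV was the lowest group and knockout MI the highest, and no groups overlapped. Zp3 rose in the knockout on both scales, while in WT it fell as deposited (-0.35) and rose after scaling (0.33). The interaction of Zp3 was 1.57 ± 0.05 as deposited (limma adjusted p = 1.17e-07) and 0.51 ± 0.05 after scaling (limma adjusted p = 0.000636). Zp1 and Zp2 had interactions of 1.57 and 1.10 as deposited and did not pass the test after scaling, at 0.51 and 0.03. Tle6, a subunit of the complex, had 7255 and 7543 at GV and 7175 and 7332 at MI in WT, and 4031 and 4315 at GV and 13710 and 14163 at MI in the knockout, an interaction of 1.77 as deposited and 0.71 after scaling. Its values in WT were nearly level as deposited and rose after scaling, while the knockout went from the lowest group to the highest as deposited. The complex member Khdc3, listed in the file under 2410004A20Rik, had 1.50 and 0.44, and its scaled call was lost in 14 of 18 alternatives, with adjusted p up to 0.689. Zbed3, also of the complex, was called lower after scaling at -0.87, with 0.19 as deposited.

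Zar1, which encodes an RNA-binding protein that stores maternal transcripts, was the only one of 38 maternal RNA-binding genes called higher on both scales. Its FPKM was 14747 and 14323 at GV and 5227 and 5598 at MI in WT, and 7814 and 8544 at GV and 12457 and 12993 at MI in the knockout. It fell in WT and rose in the knockout on both scales, and the 4 groups did not overlap. The interaction of Zar1 was 2.06 ± 0.08 as deposited (limma adjusted p = 4.73e-07) and 1.0 ± 0.07 after scaling (limma adjusted p = 0.000101). As deposited, 16 of the 38 genes were called higher (median 1.19), where 14.4% of all genes were. They included Cpeb1, the protein that binds cytoplasmic polyadenylation elements, at 0.81, whose value after scaling was -0.25 and did not pass. Pabpn1l, an oocyte poly(A)-binding protein, was called lower after scaling at -0.97, with 0.09 as deposited.

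Other oocyte-restricted transcripts went in both directions. Of 49 tested, 24 were called higher and 3 lower as deposited, and 3 higher and 16 lower after scaling. Among 2334 genes averaging 76.7 FPKM or more, 1067 were called higher and 7 lower as deposited, and 56 and 79 after scaling. Of all genes, 14.4% were called higher and 0.266% lower as deposited, and 0.643% and 0.926% after scaling. Plac1l, an oocyte-secreted protein gene, fell in WT from 1526 and 1569 to 714 and 811 and rose in the knockout from 1604 and 1592 to 2557 and 2943, with no difference called at GV. Its interaction was 1.8 as deposited and 0.74 after scaling. Uchl1, a ubiquitin hydrolase abundant in oocytes, had 11968 and 11523 at GV and 10091 and 9807 at MI in WT, and 5588 and 5511 at GV and 15333 and 15770 at MI in the knockout, an interaction of 1.73 and 0.66. As deposited, Uchl1 was lowest in knockout GV and highest in knockout MI, as were Zp3 and Tle6. After scaling the knockout was called lower than WT at MI for Uchl1 (-0.32), and the difference was not called for Zp3 (-0.06) or Tle6 (-0.03). In WT, Uchl1 fell as deposited and rose after scaling. Fbxw24, an F-box protein of a cluster with close copies, had 1.52 and 0.46. Tacc3, which organises acentrosomal spindle poles, was the only one of 69 spindle and checkpoint genes called higher on both scales. Its FPKM was 2081 and 2151 at GV and 597 and 697 at MI in WT, and 1178 and 1197 at GV and 1665 and 1843 at MI in the knockout, an interaction of 2.27 as deposited and 1.21 after scaling. At MII Tacc3 had 31.1 and 32.3 in WT and 585 and 521 in the knockout. Among genes of egg activation, Cd9, the egg tetraspanin needed for sperm fusion, was called higher at 2.18 and 1.12, going from 1264 and 1428 to 798 and 835 in WT and from 856 and 1026 to 2544 and 2616 in the knockout. Without the abundance trend, none of the scaled calls of Zp3, Tle6, Zar1, Uchl1, Tacc3 and Cd9 passed (adjusted p 0.206 to 0.617). Scaled calls were also lost without WT GV replicate 2 or Cnot6l-/- MI replicate 2 for Plac1l, Fbxw24 and Cd9, in 4, 5 and 11 of 18 alternatives in all, with adjusted p up to 0.449, 0.672 and 0.305.

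**Figure D3:**
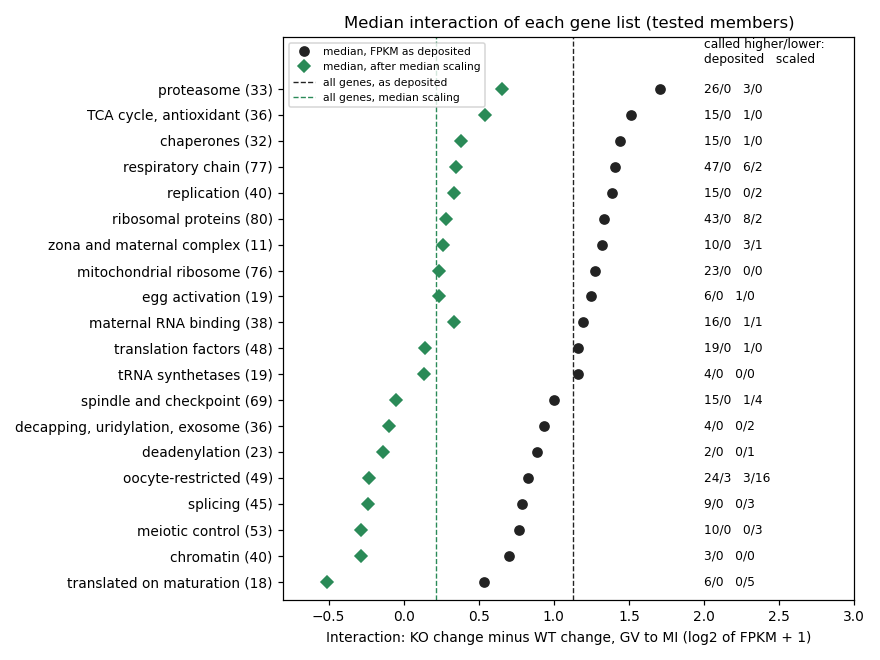
Median interaction (horizontal axis, knockout change minus WT change from GV to MI, log2 of FPKM + 1) of the tested members of 20 gene lists, with their number in parentheses, as deposited (black circles) and after median scaling (green diamonds). Dashed lines are the medians of all genes, 1.13 and 0.22; the proteasome lies highest at 1.71 and 0.65, transcripts translated on maturation lie lowest at 0.54 and -0.51, and the columns on the right count calls higher and lower.

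The 26 genes called lower on both scales were less abundant, with a median mean FPKM of 52.1. After scaling, 19 of them had a positive change in WT and a negative one in the knockout, 6 had positive changes in both and 1 negative changes in both. Their median change was 0.79 in WT and -2.29 in the knockout, and 17 were called lower at MI than at GV in the knockout on both scales. At GV the knockout was called higher than WT for 11 of the 26 after scaling, where 0.197% of all genes were, and at MI it was called lower for 18, where 2.46% were. The count of 26 was 9 and 8 without WT GV replicate 1 or 2, 15 without WT MI replicate 2, 13 without Cnot6l-/- GV replicate 1, and 5 and 6 without Cnot6l-/- MI replicate 1 or 2.

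Some of these transcripts rose on polysomes in WT and had no called rise in the knockout. Bcat2, the mitochondrial branched-chain aminotransferase (chr7:52825523-52845080), had FPKM of 65.1 and 47.1 at GV and 177 and 155 at MI in WT, and 49.9 and 33.6 at GV and 13.4 and 11.7 at MI in the knockout. The genotypes overlapped at GV, WT rose to the highest values and the knockout fell to the lowest. The interaction of Bcat2 was -3.19 ± 0.64 as deposited (limma adjusted p = 0.0103) and -4.19 ± 0.64 after scaling (limma adjusted p = 0.0094). The scaled call was lost without WT GV replicate 2, Cnot6l-/- GV replicate 1 or Cnot6l-/- MI replicate 2, with adjusted p up to 0.0604. Agbl2 had 0 and 1.10 at GV and 21.2 and 31.2 at MI in WT, against 0 and 0.14 at GV and 0.21 and 0.61 at MI in the knockout. Only WT MI stood above 2 FPKM among these 4 groups. Its interaction was -3.82 as deposited and -4.36 after scaling. Alyref2, an mRNA export factor of the Aly/REF family, had 22.3 and 25.6 at GV and 152 and 150 at MI in WT, and 21.1 and 12.8 at GV and 31.0 and 34.1 at MI in the knockout, an interaction of -1.67 and -2.70. Rrs1, a ribosome assembly factor, had 22.2 and 25, then 79.1 and 54.7 in WT and 16.5 and 23.1, then 12.4 and 8.57 in the knockout, an interaction of -2.30 and -3.29. As deposited, these calls were lost in 3 of 22 alternatives for Agbl2 (adjusted p up to 0.137), 8 for Alyref2 (up to 0.112) and 9 for Rrs1 (up to 0.141), in each case without WT GV replicate 1 or Cnot6l-/- MI replicate 1. After scaling they were lost in 8, 6 and 10 of 18, with adjusted p up to 0.202, 0.0952 and 0.169, in each case without either WT GV or either Cnot6l-/- MI library.

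Others had their highest values in knockout GV and fell in the knockout by MI. Tmem69, a membrane protein gene, had FPKM of 27.7 and 27.0 at GV and 25.9 and 28.9 at MI in WT, and 79.2 and 68.9 at GV and 14.1 and 18.0 at MI in the knockout. The WT groups overlapped, knockout GV was the highest group and knockout MI the lowest. The interaction of Tmem69 was -2.15 ± 0.45 as deposited (limma adjusted p = 0.0126) and -3.14 ± 0.45 after scaling (limma adjusted p = 0.00609), and the scaled call held in all 18 alternatives tried. Dclre1c, the Artemis nuclease of DNA end joining, had 48.5 and 45.4 at GV and 33.2 and 39.7 at MI in WT, and 131 and 134 at GV and 32.0 and 36.0 at MI in the knockout. The MI groups overlapped as deposited, while after scaling the knockout was called lower at MI (-1.03). Its interaction was -1.57 as deposited and -2.60 after scaling, and the knockout was called higher at GV on both scales, by 1.48 and 1.56. Luc7l2, a splicing factor, had 18.1 and 19.5, then 12.9 and 13.4 in WT and 61.5 and 57.3, then 12.8 and 13.0 in the knockout, an interaction of -1.63 and -2.60. Pbld1, Loxl2 and Casc4 also had their highest values in knockout GV, with interactions of -1.93, -1.97 and -1.66 as deposited and -2.93, -2.92 and -2.66 after scaling. Traf3ip1, a component of cilia transport, had -2.15 and -3.07 without sharing this pattern. Its highest mean of the 4 groups was in WT MI, with 20.3 and 22.9, against 21.0 and 13.5 in knockout GV. The change of Traf3ip1 in the knockout was not called on either scale. As deposited, calls were lost in 4 of 22 alternatives for Dclre1c (adjusted p up to 0.0727), 12 for Luc7l2 (up to 0.136), 13 for Traf3ip1 (up to 0.141), 9 for Casc4 (up to 0.122), 7 each for Pbld1 and Loxl2 (up to 0.0795 and 0.105) and for Tmem69 only without Cnot6l-/- MI replicate 1 (0.0583). After scaling the calls were lost in none of 18 for Dclre1c, 8 for Luc7l2 (up to 0.134), 11 for Traf3ip1 (up to 0.196), 6 each for Casc4 and Loxl2 (up to 0.109 and 0.112) and 5 for Pbld1 (up to 0.0723), in each of these 5 genes without either WT GV or either Cnot6l-/- MI library.

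**Figure D4:**
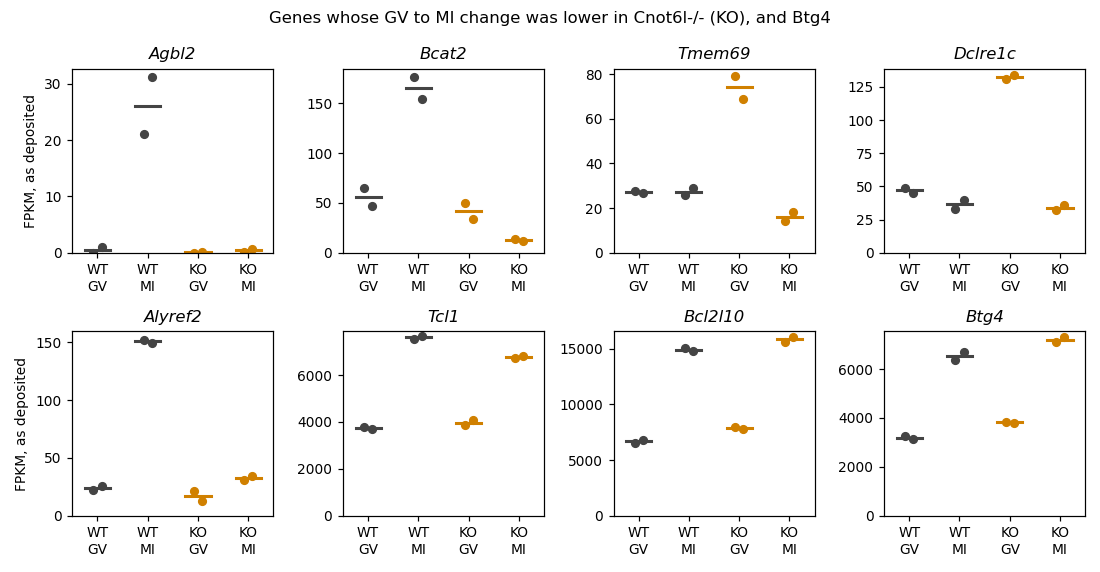
FPKM as deposited (vertical axes, each from 0) in the 2 libraries of each group, with a bar at the mean, for 7 genes called lower on both scales and for Btg4. Agbl2, Bcat2 and Alyref2 are highest in WT MI (WT in grey), Tmem69 and Dclre1c start highest in knockout GV (KO, orange), and Tcl1, Bcl2l10 and Btg4 rise in both genotypes.

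A further set consists of very abundant oocyte transcripts that rose in both genotypes, by a smaller factor in the knockout after scaling. Bcl2l10, an oocyte Bcl2 family protein, had FPKM of 6573 and 6774 at GV and 15025 and 14827 at MI in WT, and 7944 and 7827 at GV and 15598 and 16076 at MI in the knockout. Both MI groups were about level as deposited and the knockout began slightly higher. The interaction of Bcl2l10 was -0.15 ± 0.04 as deposited (limma adjusted p = 0.0335), a call lost in 13 of 22 alternatives, and -1.22 ± 0.05 after scaling (limma adjusted p = 1.63e-06). Tcl1, a coactivator of the kinase Akt, had 3801 and 3684 at GV and 7544 and 7660 at MI in WT, and 3857 and 4061 at GV and 6713 and 6819 at MI in the knockout, an interaction of -0.25 and -1.31. Its neighbour Tcl1b1, one of several close copies, had -0.58 and -1.64. At MII, Bcl2l10 had 11485 and 11190 in WT against 20708 and 20748 in the knockout, and Tcl1 had 5187 and 5110 against 11473 and 11420, so both were higher in the knockout at the later stage. The other 13 oocyte-restricted genes called lower after scaling were Gdf9, Dppa3, Spin1, H1foo, Obox1, Obox2, Obox5, Oosp1, Rfpl4, Tcl1b2, Tcl1b5, Omt2a and Omt2b, several of which have close copies.

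Transcripts known to be translated more as oocytes mature had the lowest median interaction of the 20 lists in the plot of list medians, 0.54 as deposited and -0.51 after scaling. Their median change after scaling was 1.44 in WT and 0.67 in the knockout. Of the 18, 12 rose in WT and 10 in the knockout on that scale, and none fell in either, where 6.99% and 4.19% of all genes rose. Mos, Bub1b, Orc6, Btg4 and Slbp were called lower after scaling and none higher, while 6 others, Ccnb1, Plat, Wee2, Dazl, Tex19.1 and Aurka, were called higher as deposited. Of all genes, 0.926% were called lower after scaling and 14.4% higher as deposited. Among 2334 genes averaging 76.7 FPKM or more, 79 were called lower after scaling and 1067 higher as deposited. Btg4, the adaptor of CCR4-NOT (chr9:50924106-50927805), had FPKM of 3269 and 3124 at GV and 6379 and 6704 at MI in WT, and 3829 and 3813 at GV and 7094 and 7333 at MI in the knockout. The knockout was higher at both stages as deposited and the rise was near equal. The interaction of Btg4 was -0.12 ± 0.06 as deposited (limma adjusted p = 0.239) and -1.18 ± 0.06 after scaling (limma adjusted p = 7.2e-06). Mos, the kinase upstream of MAP kinase in oocytes, had 854 and 845 at GV and 2219 and 2281 at MI in WT, and 908 and 831 at GV and 2391 and 2413 at MI in the knockout, so the genotypes were nearly level as deposited. Its interaction was 0.06 as deposited (limma adjusted p = 0.71) and -1.0 after scaling (limma adjusted p = 0.00132). Ccnb1, the cyclin of maturation promoting factor, had 936 and 903, then 2096 and 2122 in WT and 790 and 967, then 3218 and 3295 in the knockout. The knockout MI libraries were the highest, and the interaction was 0.70 as deposited (limma adjusted p = 0.00589) and -0.36 after scaling (limma adjusted p = 0.225). Gdf9, an oocyte growth factor, was called on both scales in opposite directions, 0.38 as deposited and -0.68 after scaling, and its partner Bmp15 had 0.75 as deposited and -0.31 after scaling, the latter not called. With no abundance trend, the scaled calls of Btg4, Bcl2l10, Tcl1, Tcl1b1, Mos and Gdf9 did not pass, with adjusted p of 0.199, 0.186, 0.158, 0.108, 0.284 and 0.487.

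In the deadenylation machinery, of 23 tested genes of CCR4-NOT, other deadenylases and their adaptors, Cnot2 (1.88) and Cnot3 (1.03) were called higher as deposited and Btg4 lower after scaling, with medians of 0.89 and -0.14. Of all genes, 14.4% were called higher as deposited and 0.926% lower after scaling. Cnot7, a second catalytic subunit, rose in both genotypes, from 208 and 183 to 354 and 381 in WT and from 227 and 230 to 518 and 560 in the knockout. Its interaction was 0.32 as deposited (limma adjusted p = 0.301) and -0.74 after scaling (limma adjusted p = 0.115). Cnot6, the closest relative of Cnot6l, was at 0 to 6.12 FPKM in these libraries and too low to resolve (interaction 2.29 ± 1.71 as deposited). Zfp36l2, which recruits CCR4-NOT to AU-rich elements, was at 0 to 7.88 FPKM (interaction 0.89 ± 1.27). Among 36 genes of decapping, uridylation and the exosome, Lsm4, Lsm7, Exosc7 and Exosc9 were called higher as deposited, at 1.04 to 3.60, and the decapping scavenger Dcps (-1.68) and the exosome subunit Exosc2 (-1.83) lower after scaling.

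Lists of meiotic control, spindle, splicing and chromatin genes had medians below that of all genes on both scales. Their counts stand beside 14.4% of all genes called higher as deposited and 0.926% called lower after scaling. Of 53 genes of meiotic control, 10 were called higher as deposited (median 0.77) and Cks2, Mos and Pttg1 lower after scaling (median -0.29). Pttg1, which encodes securin, had 16872 and 17503 at GV and 30652 and 31147 at MI in WT, and 7896 and 7287 at GV and 18960 and 18864 at MI in the knockout. The knockout was lower at both stages, and the interaction was 0.47 as deposited and -0.59 after scaling, called in opposite directions. Cdk1 was called higher as deposited at 2.65 and had 1.60 after scaling without passing. Of the 69 spindle and checkpoint genes, 15 were called higher as deposited (median 1.0), and Birc5, Bub1b, Mad2l1 and Nuf2 lower after scaling (median -0.05). Splicing genes had 9 of 45 called higher as deposited (median 0.79) and Snrpb2, Snrpe and Snrpg lower after scaling (median -0.24). Replication genes had medians above it: of 40, 15 were called higher as deposited (median 1.38) and Orc6 and Slbp lower after scaling (median 0.33). Of 40 chromatin and DNA methylation genes, Dnmt1, Uhrf1 and Ehmt2 were called higher as deposited (median 0.70) and none after scaling (median -0.29). Among 15 tested granulosa cell markers, Cyp19a1 was called higher as deposited and none was called after scaling.

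The 3′ ends of these transcripts were read from an annotation of the same genome build (GENCODE mouse release 1 on mouse build 9), because the cytoplasmic polyadenylation element (CPE), a U-rich site near the 3′ end, is known to mark transcripts that gain poly(A) and join polysomes during maturation. The sense strand of the last 200 bases of the 3′ UTR was searched for TTTTAT or TTTTAAT, in 9137 tested genes with a 3′ UTR of at least that length. The 7 sites below are examples, chosen after the values were seen, from oocyte-restricted and maturation genes named above whose interaction was called lower after scaling. Traf3ip1, also called lower, had 5 elements in its window, which are not printed. Each is 30 bases in the sense of the transcript, 5′ to 3′, with the element in capitals.
Btg4: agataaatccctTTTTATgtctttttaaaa
Tcl1: gaatgtgtgggaTTTTATgtggttctattt
Bcl2l10: cccttaatacatTTTTAATaacttcaaatt
Gdf9: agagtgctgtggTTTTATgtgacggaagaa
Bub1b: tttcactgtgtaTTTTATaataaaatagtt
Orc6: tcaagcccaataaatgttatTTTTATatgc
Slbp: agaactttgtttTTTTAATgatcagttaat
They lie in the 3′ UTR at chr9:50927902-50927931 (plus strand), chr12:106455007-106455036 (minus strand), chr9:75199386-75199415 (plus), chr11:53251356-53251385 (plus), chr2:118467289-118467318 (plus), chr8:87832148-87832177 (plus) and chr5:33982848-33982877 (minus). The element starts 67, 57, 42, 39, 27, 10 and 162 bases before the annotated end, in the same order. The site of Btg4 lies past the end that the deposited table gives for the gene. Of the 12 genes with the largest higher interaction, Rpl5 and Ppap2a had an element in the window.

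A CPE was present in 2796 of the 9137 windows (30.6%). Genes with one changed little in WT after scaling, with a median of -0.005, where genes without one had -0.39. In the knockout the medians were 0.03 with and -0.11 without. The gap between the 2 classes was thus narrower in the knockout, and the median interaction was 0.04 with a CPE and 0.27 without (0.96 and 1.20 as deposited). After scaling, 5 genes with a CPE were called higher and 30 lower, against 30 higher and 45 lower of the 6341 without. The order of the medians was the same at each level of abundance, as the plot by abundance shows, but that of the calls was not. At 100 FPKM or more, 5.92% of genes with a CPE and 2.68% without were called lower after scaling. From 10 to under 100 FPKM these shares were 0.161% and 0.717%, and below 10 FPKM they were 0 and 0.0376%. Among genes averaging 100 FPKM or more, the median change in WT was 0.56 with a CPE (473 genes) and 0.02 without (894 genes), and in the knockout 0.38 and 0.15. An AU-rich element and a Pumilio site were searched in the same windows on the same strand, and a match to either may share bases with a CPE. The AU-rich TATTTAT was in 7.54% of windows, with a median interaction of 0.07, and the Pumilio site TGTANATA in 8.56%, with 0.16, against 0.19 for all windows. These medians are descriptions over genes, which are not replicates. Sequence composition and length moved with them: in 5 classes of equal size, the median interaction after scaling was 0.09 at the lowest transcript GC content and 0.30 at the highest, and it was 0.22 for the shortest transcripts, 0.33 in the next class and 0.07 for the longest. Their part in the difference between genes with and without a CPE was not tested.

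**Figure D5:**
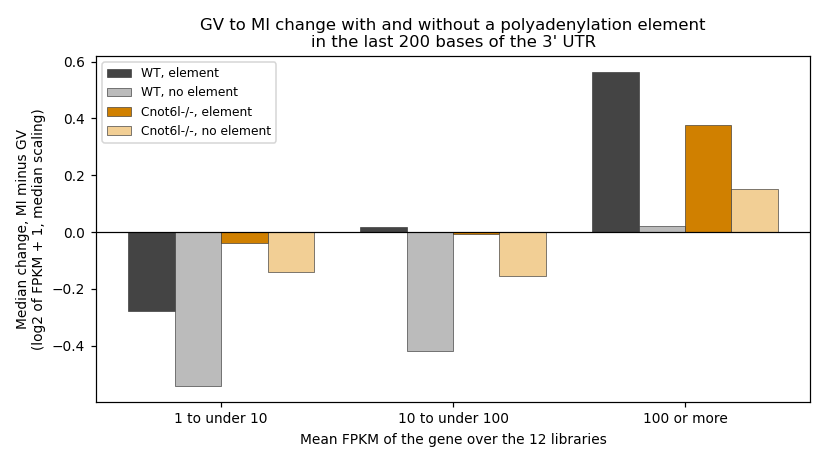
Median change from GV to MI (vertical axis, log2 of FPKM + 1 after median scaling) in WT (grey) and Cnot6l-/- (orange) oocytes for genes with and without TTTTAT or TTTTAAT in the last 200 bases of the 3′ UTR, in 3 classes of mean FPKM. Genes with an element have the higher median in every class, and the distance is larger in WT (0.56 against 0.02 at 100 FPKM or more) than in the knockout (0.38 against 0.15).

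The MII libraries, which are not part of the contrast, give a view of the same genes at a later stage. They did enter the filter, the scaling and the pooled spread behind the calls, so MII counts are not independent of the choice of genes. The shares of all genes beside them are not matched for abundance: the median mean FPKM was 540 for the 75 genes and 52.1 for the 26, against 15.0 for all genes. Of the 75 genes called higher on both scales, 67 (89.3%) were higher in the knockout than in WT at MII as deposited, where 25.4% of all genes were, and 54 (72.0%) after scaling, where 16.1% were. Of the 26 called lower, 21 (80.8%) were lower in the knockout at MII on either scale, where 3.20% and 8.31% of all genes were. Rpl5 had FPKM of 81.5 and 132 in WT MII and 1111 and 1242 in knockout MII, Sdhb had 20.0 and 29.8 against 202 and 212, and Bcat2 had 106 and 131 against 1.60 and 5.98. In each of these the MII groups did not overlap and kept the order seen at MI. Among the higher genes, Arf5 on both scales and Gstm5 after scaling were called lower in the knockout at MII. Among the lower genes, Tcl1 and Bcl2l10 on both scales and Tcl1b1 as deposited were called higher there. With each of the 12 libraries left out in turn, 25 to 144 of the genes then called higher passed at MII as deposited and 23 to 114 after scaling, and 5 to 28 and 5 to 29 of those called lower.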

How the data were processed

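RNA bound to polysomes was sequenced in 12 libraries, 2 in each of 6 groups. The authors deposited FPKM per gene, and nothing in the sources used here says how totals were set. The submitters' processing notes name Cufflinks 2.2.1, Bowtie2 2.1.0, TopHat2 2.0.11, CASAVA 1.8 and, as genome, mouse build 9; the annotation is not given in the sources used here. Genes averaging 1 FPKM or more across all 12 libraries were tested on log2(FPKM + 1), a pseudocount that understates changes of low genes, with limma 3.58.1 in R 4.3.3, using 6 group means, a prior with an abundance trend and Benjamini-Hochberg adjustment over all genes tested at 0.05. The same fit was made on FPKM as deposited and after median scaling, whose factors came from genes averaging 10 FPKM or more and above 0 in every library. Named genes were the 12 largest in each direction after scaling, called on both scales, with no overlap between libraries and a mean of at least 10 in the highest group, up to 3 per list in each direction, and a fixed set; others in lists were named after their values were seen. The members and lists were chosen with earlier results of these data known. The fit was tested on simulated data. Alternatives were other scalings, a pseudocount of 0.1, filters, libraries, the prior, a replicate block and each library left out. The search of 3′ UTRs was added after seeing the data. The labels do not say whether replicate numbers pair the libraries. Over 15 pairs of groups, r of same-numbered deviations was -0.029 to 0.055, which cannot show whether same-numbered libraries shared a source. Some genes that met the rule are not reported here.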

Additional observations from a re-analysis of the deposited data

Results flagged for a closer look

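The difference between genotypes in the change from GV to MI passed the test on both scales for 75 genes in the higher direction and 26 in the lower. In some of the named genes the stage change was called in each genotype after scaling, and in opposite directions. Arf5 had -1.11 in WT and 0.84 in the knockout, an interaction of 1.95. Cox4i1 had -0.91 and 0.87, an interaction of 1.78. Zar1 had -0.75 and 0.25, an interaction of 1.0, and Plac1l had -0.35 and 0.40, an interaction of 0.74. The reverse order held for Bcat2, with 2.23 in WT and -1.96 in the knockout and an interaction of -4.19.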

How the results depend on the processing

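With 2 libraries per group and FPKM without read depth, precision rests on a spread pooled over 6 groups, and genes of a few FPKM could not be resolved. Scaling mattered most. Against 1680 interactions called higher and 31 lower as deposited, median scaling gave 75 and 108, TPM 113 and 81, quantile normalization 94 and 85 and cyclic loess 73 and 107. For the WT change (357 higher and 2535 lower as deposited) median scaling gave 815 and 889, quantile normalization 918 and 748 and cyclic loess 814 and 742. For the knockout change (1037 and 157) median scaling gave 489 and 271, TPM 316 and 440, quantile normalization 588 and 375 and cyclic loess 367 and 344. With the 8 GV and MI libraries only, knockout changes called lower were 261 as deposited and 418 after scaling, and 116 interactions were called higher after scaling and on both scales. With no abundance trend, 811 interactions, 228 WT changes and 543 knockout changes were called higher as deposited. After scaling it gave 30 interactions higher and 31 lower and 140 knockout changes each way, with 30 interactions higher on both scales, of which 19 as deposited and 18 after scaling were higher at MII.

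Leaving out each library in turn gave 632 to 2611 interactions higher and 7 to 43 lower as deposited, 29 to 172 and 45 to 152 after scaling, and 29 to 172 and 5 to 36 on both scales. WT changes ran from 216 to 412 higher and 1176 to 3316 lower as deposited, and from 503 to 1052 and 310 to 1390 after scaling. Knockout changes ran from 506 to 1302 and 52 to 255 as deposited, and from 224 to 647 and 83 to 458 after scaling. At MII, 25 to 144 of the higher genes passed as deposited and 23 to 114 after scaling, and 5 to 28 and 5 to 29 of the lower. The fit with a replicate block called 1582 higher and 24 lower as deposited, and 64 and 92 after scaling. On both scales it called 64 and 19, of which 63 and 19 are among the 75 and 26. The labels do not say whether replicate numbers pair the libraries.

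Among the genes named by rule, the interaction changed sign for Cnot6l and for 6 genes at 0.06 to 0.89 as deposited. Under median scaling, TPM, quantile normalization and cyclic loess in turn, Cnot7 had -0.74, -0.57, -0.68 and -0.74, Mos -1.0, -0.83, -0.62 and -0.89, and Gdf9 -0.68, -0.51, -0.73 and -0.44. Under median scaling, TPM and cyclic loess, Ccnb1 had -0.36, -0.19 and -0.24 and Bmp15 -0.31, -0.14 and -0.20. Zfp36l2 had -0.33 with quantile normalization, -0.29 with cyclic loess, and with single libraries left out -0.09 to 1.87 as deposited and -0.81 to 1.42 after scaling. Cnot6l had -1.29 to 0.35 as deposited with single libraries left out, with 0.14 and 0.35 without WT GV replicate 2 and Cnot6l-/- GV replicate 2, and Mos -0.001 to 0.13. Beyond what each scaling changes by construction, the cause was not tested.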
